A study of Mus musculus with 18 samples.

Results

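The genes described here are 36 of the 25239 genes in the deposited table, chosen by name as genes of the unfolded protein response and of the integrated stress response. All 36 were found in the table and all passed the filter on low values, as did 12828 genes in all. The unfolded protein response is set off when unfolded protein accumulates in the endoplasmic reticulum (ER). It has 3 sensors in the ER membrane: IRE1, encoded by Ern1, which splices the Xbp1 transcript, ATF6, and PERK, encoded by Eif2ak3. PERK and the amino acid sensor GCN2, encoded by Eif2ak4, phosphorylate the initiation factor eIF2, which lowers general translation while translation of Atf4 rises, and this arm is called the integrated stress response. ATF4 protein acts on genes of amino acid synthesis and on Ddit3 (CHOP), Trib3 and Chac1.

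RNA came from 3 cell lines (4711-1, 4711-18 and 4716-11) derived from small cell lung tumours of mice with the alleles Rosa26 FlpO-ER, Rbl2 flox/flox, Trp53 XTR/XTR and Rb1 flox/flox, in which Cre had deleted Rb1 and Rbl2 and inactivated Trp53, a genotype that all samples share. The labels class all 3 as Type D, and each line comes from a single tumour. Each line carried Cas9 with a guide against β-galactosidase (sgBgal), sgPpia#3.2 or sgPpia#4.1, the latter 2 against the cyclophilin A gene Ppia, and each was given vehicle for 72 h (Control) or 500 nM 4-hydroxytamoxifen (4-OHT), which activates FlpO-ER and restores Trp53 (Restored). This gave 18 libraries in 6 conditions of 3, in which the 3 cell lines are the replicates, and no library has a second culture of the same line, guide and state. No group had 4-OHT without the Trp53 allele, so an effect of 4-OHT itself and that of p53 cannot be told apart. Values are TPM, each gene's share of the library's transcripts after correction for length, and values in a row follow the order 4711-1, 4711-18, 4716-11.

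Trp53 was at 5.45 to 8.41 TPM in Control and 181 to 236 TPM in Restored libraries, and its target Cdkn1a, the p21 gene, at 99.4 to 369 against 1565 to 3806 TPM, so the state of each library matched its label. Rb1, of which part was deleted, was listed at 3.36 to 9.44 TPM in Control and 14.6 to 30.8 TPM in Restored libraries, and Rbl2 at 1.98 to 4.14 TPM in Control and 3.89 to 6.66 TPM in Restored libraries, and TPM per gene do not tell which exons gave these reads. Ppia was at 1551 to 2849 TPM with sgBgal, 658 to 1233 with sgPpia#3.2 and 1191 to 1952 with sgPpia#4.1. Against sgBgal, the log2 fold change of Ppia with sgPpia#3.2 was -1.51 in Control and -1.13 in Restored cells and was called with the cell line as a block (limma, adjusted p = 0.00153 and 0.0431) and not without it (adjusted p = 0.472 and 1.00), and with sgPpia#4.1 it was not called in either fit. Of the neuroendocrine markers reported, Chga, Chgb, Calca and Neurod1 were at or near 0, at most 0.215 TPM in all libraries, and Ncam1 (6.90 to 29.7 TPM) and Syp (3.03 to 7.12 TPM) were the highest. The summed level of 6 fibroblast markers was at most 1.22 TPM and that of 3 endothelial markers at most 1.44 TPM. The 5 macrophage markers summed to 2.95 to 7.44 TPM in Control and 22.9 to 42.8 TPM in Restored libraries, of which Cd68 made up 21.3 to 39.8 TPM, while Ptprc and Adgre1 stayed at or below 0.0814 TPM, and their part in the results was not tested. TPM give no read total, and relative depth, taken from the steps between low values, spanned 1.77-fold. In bulk RNA, fewer cells of a kind and less RNA per cell cannot be told apart.

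Libraries of 2 arms, an arm being 1 line with 1 guide, differed most from the sgBgal libraries of their line, and are called here the libraries that stood apart. Against the sgBgal library of the same line and state, 927 of 12828 genes differed by 2-fold or more in Control and 515 in Restored cells of 4711-18 with sgPpia#3.2, and 315 and 530 in 4711-1 with sgPpia#4.1. The other 8 libraries with a Ppia guide had 69 to 248 such genes. Against the mean TPM of the other 2 libraries of the same line and state (for their neighbours in these lines, a mean that includes a library that stood apart), the counts were 1625 and 912 for 4711-18 with sgPpia#3.2, 670 and 1015 for 4711-1 with sgPpia#4.1 and 365 to 812 in the other 14 libraries. By that measure the Control library of 4711-1 with sgPpia#4.1 was within the range of the others, and the highest of these was the Control library of 4711-18 with sgPpia#4.1. The relative depth of the 4 libraries was 1.18 to 1.73, within the range of the rest. These 4 libraries were singled out after their values were seen, with stress-response genes among those that set them apart, so fits that leave them out are given as a description beside the fits on all libraries.

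The 36 genes were all expressed, from a lowest value of 4.01 TPM for Ern1 to a highest of 1495 TPM for Hspa5. By their medians over 18 libraries, the ER chaperones and folding enzymes ran from 16.4 (Dnajc3) to 1105 TPM (Calr), and the sensors, kinases and Xbp1 from 7.19 (Eif2ak4) to 45.7 TPM (Xbp1). Atf4 had the second-highest median, 818 TPM. The spread over libraries was widest for Atf3 (6.05 to 768 TPM) and Trib3 (18.4 to 259.6 TPM) and narrowest for Hsp90b1 (457 to 759 TPM) and Ppp1r15b (47.8 to 79.8 TPM). On log2(TPM + 1), the share of a gene's sum of squares that went with state was largest for Pdia3 (81.0%), Psat1 (79.6%), Pdia6 (62.7%) and Dnajb9 (62.6%). Cell line took the largest share for 10 of the 36 genes, with 87.5% for Dnajc3 and 82.6% for Syvn1. Neither line, state nor guide took the largest share for 14 genes, Atf4 (85.2% left over), Chac1 (75.2%), Atf3 (73.1%), Cebpb (71.4%) and Trib3 (67.8%) with the most.

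Most of these genes did not pass the test for a change with p53 restoration. The test was limma on log2(TPM + 1) of all 12828 genes, and a call needed an adjusted p (Benjamini-Hochberg) under 0.05 together with a change of 1 or more on the log2 scale, which is 2-fold. In sgBgal cells Dnajb9 rose and Psat1 fell, in sgPpia#3.2 cells Psat1 fell, and in sgPpia#4.1 cells Dnajb9 rose and Psat1 fell. This is 1, 0 and 1 gene of 36 called up, where 5.46, 4.44 and 4.30% of all genes tested were called up. It is 1 gene of 36 called down with each guide, where 2.17, 1.31 and 1.79% of all genes were called down. With the adjusted p alone, Pdia3 was added with each guide, which makes 3, 2 and 3 of 36 genes beside 13.8, 10.0 and 10.3% of all genes. The 3 comparisons used separate libraries of the same 3 lines.

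With the cell line as a block, 3, 1 and 3 of the 36 genes were called, beside 11.0, 8.61 and 9.18% of all genes. The block added Ppp1r15a in sgBgal cells and Eif2ak3 in sgPpia#4.1 cells to the genes named above. The median log2 fold change of the 36 genes was 0.078, -0.064 and 0.13 with sgBgal, sgPpia#3.2 and sgPpia#4.1, beside 0.19, 0.17 and 0.15 for all genes tested, so a gene with a fold change of 0 on this scale lay slightly below the middle of all genes. Within each line and guide, 6 of the 36 genes were higher in the Restored library in all 9 pairs (Canx, Pdia3, Dnajb9, Dnajc3, Edem1 and Eif2ak3), as were 30.8% of all genes, and 6 were lower in all 9 (Pdia6, Manf, Herpud1, Xbp1, Psat1 and Shmt2), as were 12.8% of all genes. The other 24 genes differed in direction between pairs.

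**Figure D1:**
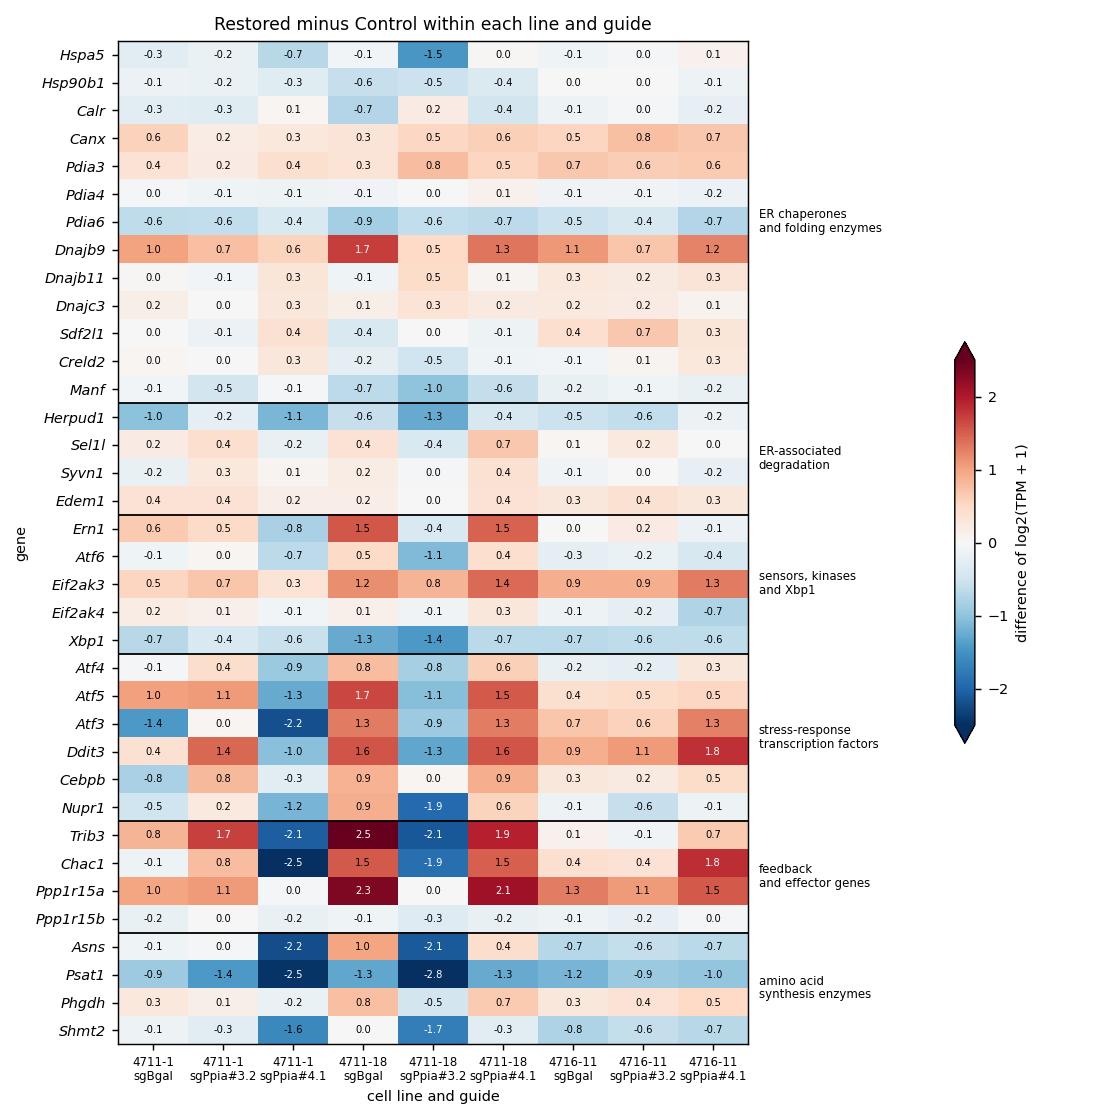
Each cell gives a gene's difference of log2(TPM + 1), Restored minus Control, in 1 line with 1 guide, and rows are grouped by role (colour scale cut at 2.5 either way). Dnajb9, Pdia3, Canx and Eif2ak3 are positive and Psat1, Xbp1, Herpud1 and Pdia6 negative in all 9 columns, while Trib3, Chac1, Asns and Ddit3 are negative in the columns of 4711-1 with sgPpia#4.1 and 4711-18 with sgPpia#3.2.

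The ER chaperones and folding enzymes did not share a direction. Of 13 genes in the group, 1 was called in sgBgal cells and in sgPpia#4.1 cells, Dnajb9 both times, and 0 in sgPpia#3.2 cells. The group's median log2 fold change was -0.072, -0.049 and 0.14 with the 3 guides. Hspa5 encodes BiP, the Hsp70 chaperone of the ER, and is the usual readout of the response. Hspa5 in sgBgal cells was at 1030.1, 952 and 783 TPM in Control and at 849.8, 911 and 729 TPM in Restored libraries. With sgPpia#3.2, Hspa5 was at 745, 1495 and 678 TPM in Control and at 663, 541 and 663 TPM in Restored libraries. With sgPpia#4.1, Hspa5 was at 519, 833 and 634 TPM in Control and at 323, 852 and 686 TPM in Restored libraries. The Hspa5 groups overlapped with sgBgal and sgPpia#4.1, while with sgPpia#3.2 the lowest Control value (678 TPM) was just above the highest Restored value (663 TPM), with 4711-18 carrying sgPpia#3.2 highest in Control and 4711-1 carrying sgPpia#4.1 lowest in both states. The log2 fold change was -0.15, -0.55 and -0.18 (SE 0.34, n = 3 lines each), with adjusted p = 0.825, 0.351 and 0.816. Without the 4 libraries it was -0.10 with sgPpia#3.2 and 0.074 with sgPpia#4.1.

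Dnajb9 encodes ERdj4, a BiP co-chaperone that is a target of spliced Xbp1. Dnajb9 in sgBgal cells was at 88.7, 52.9 and 51.8 TPM in Control and at 179.9, 178 and 112 TPM in Restored libraries. With sgPpia#3.2, Dnajb9 was at 73.5, 45.2 and 56.8 TPM in Control and at 124, 64.3 and 92.6 TPM in Restored libraries. With sgPpia#4.1, Dnajb9 was at 76.4, 44.6 and 46.1 TPM in Control and at 113, 115 and 111 TPM in Restored libraries. Each Restored library of Dnajb9 lay above the Control library of its line, and the groups did not overlap with sgBgal or sgPpia#4.1, whereas in sgPpia#3.2 cells the Restored library of 4711-18 was below the Control library of 4711-1. The log2 fold change of Dnajb9 was 1.28, 0.65 and 1.05 (SE 0.30), with adjusted p = 0.0116, 0.205 and 0.0376. Less the median of all genes, these were 1.09, 0.48 and 0.90, and with values rescaled by median of ratios the sgPpia#4.1 value of 0.87 was no longer called (adjusted p = 0.0794). With fewer samples in the fit, leaving out 4711-18 or 4716-11 ended the call in sgBgal cells, at log2 fold changes of 1.05 and 1.37 (adjusted p = 0.126 and 0.112), and in sgPpia#4.1 cells, at 0.90 and 0.95 (adjusted p = 0.231 and 0.309).

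Pdia3 (ERp57) is a disulfide isomerase that works with the lectin chaperones Calr and Canx on glycoproteins, and it was chosen for values in every library after these were seen. Pdia3 in sgBgal cells was at 713, 758 and 666 TPM in Control and at 919, 957 and 1062 TPM in Restored libraries. With sgPpia#3.2, Pdia3 was at 738, 617 and 680.4 TPM in Control and at 851, 1062 and 1040.2 TPM in Restored libraries. With sgPpia#4.1, Pdia3 was at 607, 679.9 and 608 TPM in Control and at 803, 981 and 952 TPM in Restored libraries. Restored libraries of Pdia3 lay above all Control libraries with each guide. Its log2 fold change of 0.46, 0.53 and 0.53 (SE 0.14) passed the adjusted p with each guide (0.0433, 0.0265 and 0.0280) and was under the fold threshold. It did not pass after rescaling by median of ratios (adjusted p = 0.366, 0.220 and 0.186), where the log2 fold changes were 0.24, 0.33 and 0.35.

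Canx (calnexin), the membrane-bound lectin chaperone, had log2 fold changes of 0.48, 0.49 and 0.52 (SE 0.19, adjusted p = 0.102, 0.120 and 0.0959), and 0.19 to 0.76 over the 9 pairs. Its soluble counterpart Calr (calreticulin) had values of -0.38, -0.049 and -0.20 (adjusted p = 0.158, 0.909 and 0.527). Pdia6, another disulfide isomerase, was lower in all 9 pairs, with -0.67, -0.54 and -0.59 in the fits (SE 0.23, adjusted p = 0.0678, 0.162 and 0.121). With the cell line as a block, Canx, Pdia3 and Pdia6 passed the adjusted p with each guide, under the fold threshold (for Canx 0.0118, 0.0136 and 0.00973, for Pdia6 0.00211, 0.00870 and 0.00513). After rescaling by median of ratios, Pdia6 passed the adjusted p in sgBgal cells (-0.89, adjusted p = 0.0486). Within the calnexin cycle and the disulfide isomerases, the RNA of Canx and Pdia3 was higher and that of Pdia6 lower in the same Restored libraries, and Pdia4 was at -0.072, -0.063 and -0.061. Manf, which encodes a secreted ER stress factor, was lower in all 9 pairs (-1.01 to -0.053), with adjusted p = 0.458, 0.208 and 0.543, and with the block it passed the adjusted p in sgPpia#3.2 cells (-0.52, adjusted p = 0.0284). Its differences with that guide were -0.45, -1.01 and -0.11, and with the block it did not pass without the 4 libraries that stood apart. Hsp90b1 (GRP94), Dnajb11, Dnajc3, Sdf2l1 and Creld2, all chaperones, co-chaperones or ER-resident folding factors, had log2 fold changes between -0.26 and 0.23 and none was called.

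**Figure D2:**
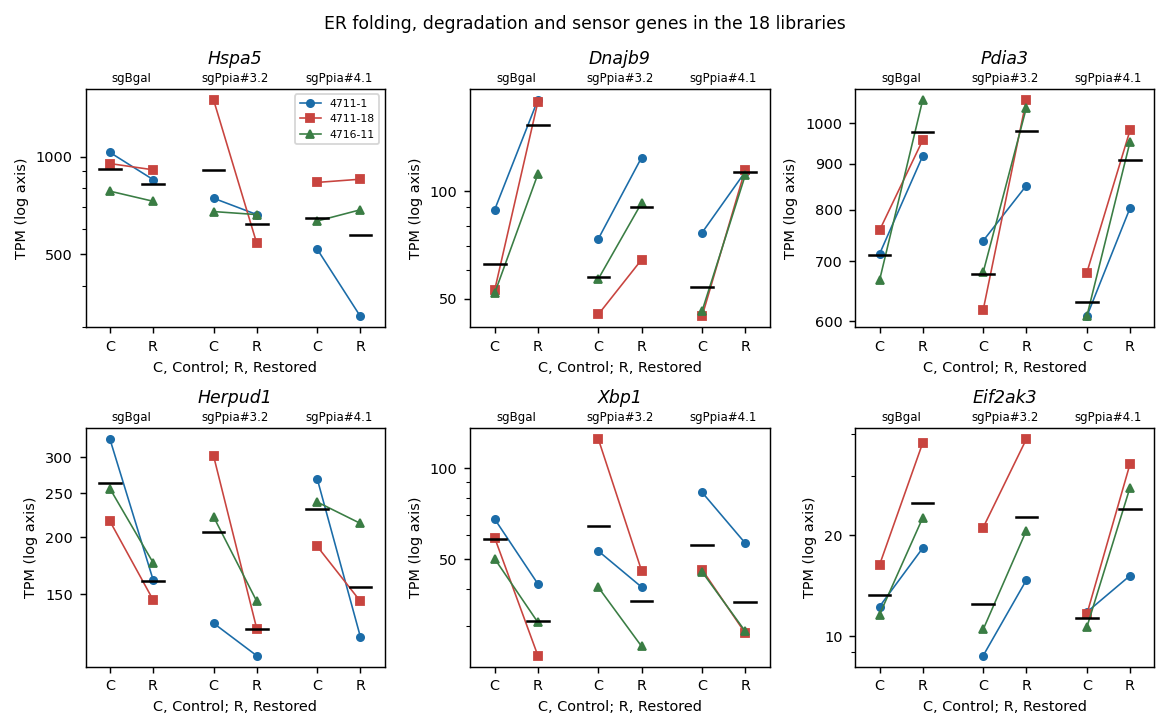
TPM (log axes) of 6 ER genes, with 1 point per library, lines joining Control (C) and Restored (R) of the same cell line, and black bars for the geometric mean of 3 lines. Dnajb9, Pdia3 and Eif2ak3 slope up and Herpud1 and Xbp1 down in every line and guide, and Hspa5 drops from 1495 to 541 TPM in 4711-18 with sgPpia#3.2.

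Promoter windows of 300 bases, 250 before to 50 after the start site in RefSeq (GRCm38.p6), were given for 33 of the 36 genes. They were searched on both strands for the ER stress response element (ERSE), CCAAT and CCACG with 9 bases between them, the site through which ATF6 is known to act with NF-Y. It was present in 8 of 33 windows (Calr, Canx, Creld2, Dnajc3, Hsp90b1, Hspa5, Pdia6 and Syvn1) and in 0.119% of all windows. The stretches of Hspa5, Canx and Pdia6 are shown because these genes hold the same element while the fitted log2 fold change of Canx was above 0 and those of Hspa5 and Pdia6 below 0 with each guide, in lower case with the element in capitals, 5′ to 3′ along the gene. They lie at chr2:34772005-34772063 (plus strand), chr11:50325780-50325838 (minus strand) and chr12:17266471-17266529 (plus strand).
Hspa5: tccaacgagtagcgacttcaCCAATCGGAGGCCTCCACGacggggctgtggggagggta
Canx: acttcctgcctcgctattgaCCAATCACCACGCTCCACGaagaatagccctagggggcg
Pdia6: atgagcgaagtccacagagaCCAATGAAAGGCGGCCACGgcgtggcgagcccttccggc
The element began 65 bases before the start of Hspa5, 145 before that of Canx and 98 before that of Pdia6. The 8 genes with the element had log2 fold changes in sgBgal cells from -0.67 (Pdia6) to 0.48 (Canx). Dnajb9, the group's only called gene, has no match in its window.

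In ER-associated degradation, the disposal of misfolded ER proteins, none of 4 genes was called. Herpud1 encodes a membrane adaptor of the degradation complex and is a target of both ATF6 and ATF4. Herpud1 in sgBgal cells was at 329, 217 and 256 TPM in Control and at 161, 146 and 176 TPM in Restored libraries. With sgPpia#3.2, Herpud1 was at 129, 302 and 222 TPM in Control and at 109.8, 126 and 145 TPM in Restored libraries. With sgPpia#4.1, Herpud1 was at 269, 191 and 239 TPM in Control and at 121, 145 and 215 TPM in Restored libraries. Each Restored library of Herpud1 was below the Control library of its line, and the groups were separate with sgBgal and overlapped with both Ppia guides. Its log2 fold change was -0.71, -0.70 and -0.57 (SE 0.28), with adjusted p = 0.113, 0.143 and 0.238. With the block, adjusted p = 0.0463 in sgBgal cells, under the fold threshold. Sel1l and Syvn1, the core of the HRD1 ubiquitin ligase, had log2 fold changes of 0.20, 0.094 and 0.17 and -0.032, 0.080 and 0.079. Edem1, a mannosidase-like protein that feeds glycoproteins to the ligase, was higher by 0.16 to 0.39 in 8 pairs and by only 4.9e-05 in 4711-18 with sgPpia#3.2 (adjusted p = 0.422, 0.502 and 0.459).

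Among the sensors and Xbp1, Eif2ak3 RNA was higher and Xbp1 RNA lower in each Restored library than in the Control library of its line, and with all libraries no gene of the 5 was called without the block. Eif2ak3 in sgBgal cells was at 12.3, 16.3 and 11.6 TPM in Control and at 18.3, 37.7 and 22.6 TPM in Restored libraries. With sgPpia#3.2, Eif2ak3 was at 8.76, 21.1 and 10.5 TPM in Control and at 14.7, 38.7 and 20.7 TPM in Restored libraries. With sgPpia#4.1, Eif2ak3 was at 11.8, 11.6 and 10.6 TPM in Control and at 15.2, 32.7 and 27.8 TPM in Restored libraries. Restored libraries of Eif2ak3 were above all Control libraries with sgBgal and with sgPpia#4.1, while with sgPpia#3.2 the Control library of 4711-18 was above the Restored libraries of both other lines. The log2 fold change of Eif2ak3 was 0.87, 0.82 and 1.02 (SE 0.38, adjusted p = 0.150, 0.212 and 0.111). With the block, the SE was 0.22 and adjusted p = 0.00736, 0.0125 and 0.00358, so that it rose past both thresholds in sgPpia#4.1 cells.

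Xbp1 encodes the transcription factor that IRE1 activates by splicing, and TPM per gene do not tell the spliced from the unspliced form. Xbp1 in sgBgal cells was at 67.9, 58.9 and 50.2 TPM in Control and at 41.4, 24.0 and 30.9 TPM in Restored libraries. With sgPpia#3.2, Xbp1 was at 53.2, 125 and 40.4 TPM in Control and at 40.5, 45.9 and 25.7 TPM in Restored libraries. With sgPpia#4.1, Xbp1 was at 83.4, 46.2 and 45.5 TPM in Control and at 56.6, 28.5 and 28.9 TPM in Restored libraries. The Xbp1 groups did not overlap with sgBgal, where Control libraries were 50.2 TPM or more and Restored libraries 41.4 or less, and they overlapped with both Ppia guides. For Xbp1 the log2 fold change was -0.88, -0.81 and -0.62 (SE 0.40, adjusted p = 0.159, 0.232 and 0.374). With the block, adjusted p = 0.0472, 0.0732 and 0.160. Ern1 (IRE1) had 0.73, 0.11 and 0.17 (adjusted p = 0.334, 0.929 and 0.875) and was higher in 5 of 9 pairs, Atf6 had 0.038, -0.41 and -0.21, and Eif2ak4 (GCN2) had 0.062, -0.065 and -0.18. In sgBgal cells of 4711-18, Ern1 went from 6.15 to 19.9 TPM, and in those of 4716-11 from 7.51 to 7.42 TPM.

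None of the 6 stress-response transcription factors was called with any guide, and their direction differed between libraries. Their median log2 fold change was 0.18, 0.032 and 0.19, and without the 4 libraries it was 0.18, 0.41 and 0.85. Atf4 encodes the central factor of the integrated stress response, regulated mainly in its translation. Atf4 in sgBgal cells was at 1003, 737 and 822 TPM in Control and at 968, 1256 and 725 TPM in Restored libraries. With sgPpia#3.2, Atf4 was at 667, 1131 and 868 TPM in Control and at 908, 639 and 741 TPM in Restored libraries. With sgPpia#4.1, Atf4 was at 1046, 689.9 and 672 TPM in Control and at 553, 1041 and 813 TPM in Restored libraries. Atf4 groups overlapped with each guide, and the 2 highest Control values were those of 4711-18 with sgPpia#3.2 and 4711-1 with sgPpia#4.1, the same arms that had the 2 lowest Restored values. For Atf4 the log2 fold change was 0.18, -0.20 and -0.017 (SE 0.28, adjusted p = 0.733, 0.737 and 0.983), and it was -0.042 in sgBgal cells after rescaling by median of ratios.

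Ddit3 encodes CHOP, a factor downstream of ATF4 linked to cell death under prolonged stress. Ddit3 in sgBgal cells was at 113, 109.6 and 76.4 TPM in Control and at 147, 329 and 145 TPM in Restored libraries. With sgPpia#3.2, Ddit3 was at 46.9, 479.6 and 70.3 TPM in Control and at 128, 196 and 148 TPM in Restored libraries. With sgPpia#4.1, Ddit3 was at 102, 99.3 and 61.8 TPM in Control and at 48.9, 297 and 222 TPM in Restored libraries. In 7 of 9 pairs the Restored library of Ddit3 was higher, by 0.38 to 1.83 on the log2 scale, and in 4711-1 with sgPpia#4.1 and 4711-18 with sgPpia#3.2 it was lower, with differences of -1.05 and -1.29. The fitted log2 fold change was 0.95, 0.40 and 0.78 (SE 0.74, adjusted p = 0.435, 0.815 and 0.576). Without the 4 libraries and with the block it was 0.95, 1.24 and 1.70, with adjusted p = 0.00818, 0.0106 and 0.00183, which is past both thresholds in the cells with either Ppia guide and under the fold threshold in sgBgal cells. The pairs in which Ddit3 fell are among the libraries left out, which were singled out after their values were seen. These adjusted p are therefore a description and no test of a rise.

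Atf3, a stress-induced factor that both p53 and ATF4 are known to act on, had the widest range of the 36 genes and is described after its values were seen. Atf3 in sgBgal cells was at 768, 239.9 and 286 TPM in Control and at 285, 592 and 461 TPM in Restored libraries. With sgPpia#3.2, Atf3 was at 414, 87.1 and 341 TPM in Control and at 428, 45.7 and 509 TPM in Restored libraries. With sgPpia#4.1, Atf3 was at 31.4, 228 and 285 TPM in Control and at 6.05, 555 and 681 TPM in Restored libraries. The 4 lowest values of Atf3 were those of the 4 libraries that stood apart, from 6.05 to 87.1 TPM, and no other library was below 228 TPM. Against sgBgal of the same line, Atf3 differed by -4.57 and -5.34 in Control and Restored cells of 4711-1 with sgPpia#4.1, and by -1.45 and -3.67 in those of 4711-18 with sgPpia#3.2, while Trib3, Asns and Psat1 were higher than with sgBgal in the same Control libraries. With restoration, the log2 fold change of Atf3 was 0.19, -0.10 and 0.11 with an SE of 1.46. Atf5, which like Atf4 is translated under stress, had 1.03, 0.16 and 0.26 (adjusted p = 0.326, 0.924 and 0.865). Cebpb, a partner of ATF4, had 0.12, 0.36 and 0.36 and Nupr1, a small stress-induced chromatin protein, 0.093, -0.76 and -0.24, and neither was called.

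**Figure D3:**
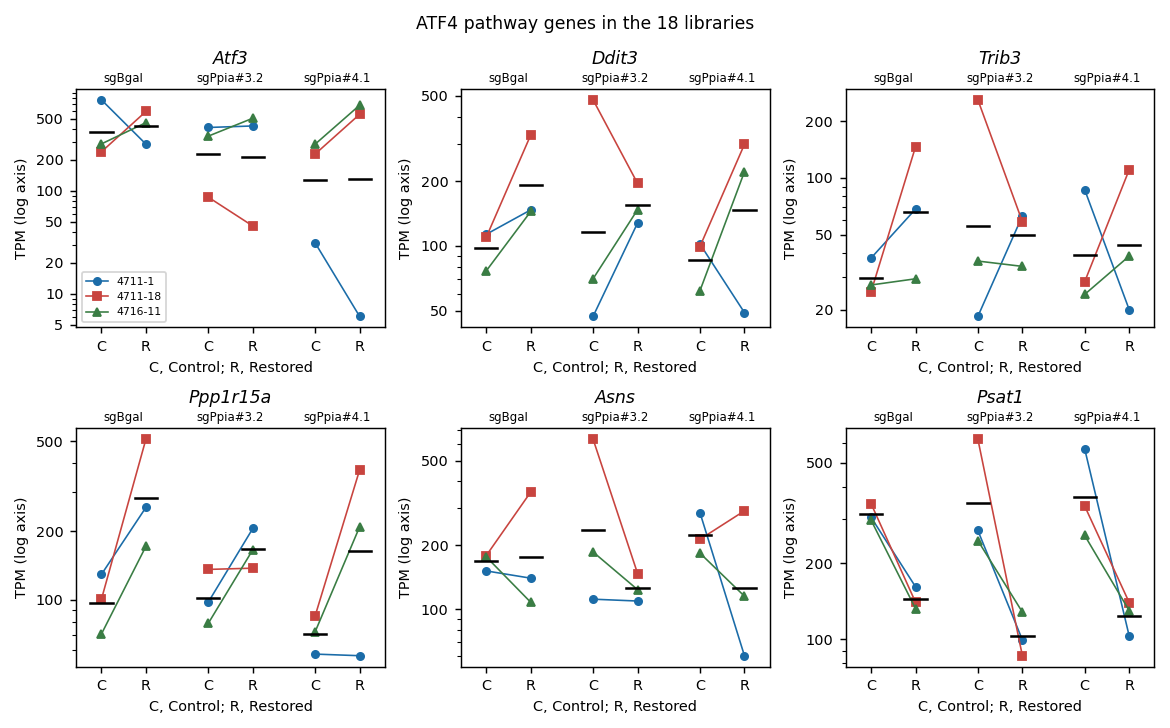
TPM (log axes) of 6 genes downstream of ATF4 or linked to it, drawn as 1 point per library with Control (C) and Restored (R) of a line joined and black bars for the geometric mean of 3 lines. Trib3, Asns and Psat1 are highest in the Control libraries of 4711-18 with sgPpia#3.2 (259.6, 633 and 622 TPM), and Psat1 slopes down in every line and guide.

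Of the feedback and effector genes, Ppp1r15a had the highest mean fold change of all 36 genes and Trib3 differed in direction between libraries. Ppp1r15a encodes GADD34, which directs the dephosphorylation of eIF2. Ppp1r15a in sgBgal cells was at 129, 100.3 and 70.5 TPM in Control and at 255, 511 and 172 TPM in Restored libraries. With sgPpia#3.2, Ppp1r15a was at 97.5, 136 and 78.6 TPM in Control and at 206, 138 and 166 TPM in Restored libraries. With sgPpia#4.1, Ppp1r15a was at 57.5, 84.8 and 72.1 TPM in Control and at 56.6, 374 and 209.7 TPM in Restored libraries. With sgBgal, the Restored libraries of Ppp1r15a were all above the Control libraries. In 8 of 9 pairs the Restored library was higher, and in 4711-1 with sgPpia#4.1 and 4711-18 with sgPpia#3.2 the difference was -0.023 and 0.018, against 0.98 to 2.34 in the other 7 pairs. The fitted log2 fold change was 1.53, 0.72 and 1.21 (SE 0.54, adjusted p = 0.0737, 0.463 and 0.180). With the block, adjusted p = 0.0218 in sgBgal cells, which is past both thresholds, and without the 4 libraries as well the values were 1.53, 1.07 and 1.83 with adjusted p = 0.00118, 0.0261 and 0.00186. The libraries left out hold the pairs with the smallest differences and were singled out after their values were seen. The adjusted p without them are therefore a description and no test.

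Trib3 encodes a pseudokinase that is induced by ATF4 and CHOP and feeds back on ATF4. Trib3 in sgBgal cells was at 37.6, 24.9 and 27.1 TPM in Control and at 68.4, 146 and 29.2 TPM in Restored libraries. With sgPpia#3.2, Trib3 was at 18.4, 259.6 and 36.3 TPM in Control and at 63.0, 58.6 and 34.0 TPM in Restored libraries. With sgPpia#4.1, Trib3 was at 86.5, 28.2 and 24.1 TPM in Control and at 20.0, 111 and 38.5 TPM in Restored libraries. Trib3 was highest of all in the Control library of 4711-18 with sgPpia#3.2 and the Control library of 4711-1 with sgPpia#4.1 exceeded all other Control libraries too, whereas the other 7 Control libraries were at 18.4 to 37.6 TPM. After restoration Trib3 was lower in these 2 arms, with differences of -2.13 and -2.06 on the log2 scale, and in 4711-18 with sgBgal it was higher by 2.51. In 4716-11 the 3 differences were 0.11, -0.091 and 0.65. The fitted log2 fold change was 1.15, -0.17 and 0.18 with an SE of 0.85 (adjusted p = 0.411, 0.939 and 0.933), and 1.15, 0.81 and 1.29 without the 4 libraries (adjusted p = 0.191, 0.574 and 0.268). Chac1, a glutathione-degrading enzyme induced by ATF4, had 0.60, -0.25 and 0.28, and 0.60, 0.56 and 1.67 without the 4 libraries. Ppp1r15b, the constitutive counterpart of Ppp1r15a, had -0.13, -0.17 and -0.14 and stayed between 47.8 and 79.8 TPM.

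The amino acid synthesis enzymes held the 1 gene called with all 3 guides. Psat1 encodes the aminotransferase of the serine pathway. Psat1 in sgBgal cells was at 304, 345 and 297 TPM in Control and at 161, 140.0 and 132 TPM in Restored libraries. With sgPpia#3.2, Psat1 was at 269.6, 622 and 246 TPM in Control and at 99.2, 85.9 and 128 TPM in Restored libraries. With sgPpia#4.1, Psat1 was at 568, 337 and 258 TPM in Control and at 103, 139 and 129.5 TPM in Restored libraries. Restored libraries of Psat1 were below all Control libraries with each guide, and the Control values of 4711-18 with sgPpia#3.2 and 4711-1 with sgPpia#4.1 were the 2 highest. For Psat1 the log2 fold change was -1.12, -1.74 and -1.57 (SE 0.33), with adjusted p = 0.0335, 0.00351 and 0.00652. Without the 4 libraries and with the block, the values were -1.12, -1.19 and -1.13, with adjusted p = 2.50e-04, 0.00109 and 0.00102, so Psat1 was called without them and the values with the Ppia guides were nearer to that with sgBgal. In sgBgal cells the call was lost when any line was left out, with fewer samples in the fit, while the log2 fold change was -1.23, -1.04 and -1.10 without each line in turn (adjusted p = 0.120, 0.112 and 0.167). It was also lost without 4711-18 in sgPpia#3.2 cells, at -1.19 (adjusted p = 0.0754), and without 4711-1 or 4716-11 in sgPpia#4.1 cells, at -1.13 and -1.86 (adjusted p = 0.144 and 0.0572). Phgdh, the first enzyme of the serine pathway, had 0.43, 0.012 and 0.33 (adjusted p = 0.262, 0.984 and 0.440). Shmt2, which turns serine into glycine in mitochondria, was lower in all 9 pairs (-1.72 to -0.014), with -0.31, -0.87 and -0.86 in the fits (adjusted p = 0.636, 0.161 and 0.161). With the block, adjusted p = 0.355, 0.0197 and 0.0205, which passed with both Ppia guides under the fold threshold. It passed both thresholds in sgPpia#3.2 and sgPpia#4.1 cells after rescaling by median of ratios (-1.07 and -1.04, adjusted p = 0.0432 and 0.0496). Without the 4 libraries, and without rescaling, Shmt2 did not pass the adjusted p with either Ppia guide, with or without the block. Its differences were -1.72 in 4711-18 with sgPpia#3.2 and -1.61 in 4711-1 with sgPpia#4.1, against -0.70 to -0.28 in the other pairs with a Ppia guide.

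Asns encodes asparagine synthetase, a classic ATF4 target. Asns in sgBgal cells was at 151, 179 and 176 TPM in Control and at 139.8, 356 and 108 TPM in Restored libraries. With sgPpia#3.2, Asns was at 111, 633 and 186 TPM in Control and at 109, 147 and 123 TPM in Restored libraries. With sgPpia#4.1, Asns was at 285, 213 and 184 TPM in Control and at 60.2, 291 and 115 TPM in Restored libraries. Asns groups overlapped with each guide, with 633 TPM as the highest value and 60.2 TPM as the lowest. It was higher after restoration in 4711-18 with sgBgal and sgPpia#4.1 (0.99 and 0.44) and lower in the 3 pairs of 4716-11 (-0.71, -0.59 and -0.67). The fitted log2 fold change was 0.058, -0.90 and -0.82 (SE 0.61, adjusted p = 0.968, 0.403 and 0.457), and -0.16 in sgBgal cells after rescaling. In the arms that stood apart, the differences of Asns were -2.10 in 4711-18 with sgPpia#3.2 and -2.23 in 4711-1 with sgPpia#4.1. The other pairs with a Ppia guide lay from -0.67 to 0.44.

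The same windows were searched on both strands for the composite site of C/EBP and ATF4, TGATG followed by any base and AA. It was present in 6 of 33 windows (Asns, Atf3, Chac1, Herpud1, Nupr1 and Trib3) and in 3.97% of all windows, and no window of the 36 genes held both elements. The stretches of Trib3, Asns and Atf3 are shown because Trib3 and Asns were high in Control libraries of the arms that stood apart, where Atf3 was low. They lie at chr2:152344019-152344066 (minus strand), chr6:7693205-7693252 (minus strand) and chr1:191183416-191183463 (minus strand), with the site in capitals, which in Trib3 and Atf3 is read on the opposite strand.
Trib3: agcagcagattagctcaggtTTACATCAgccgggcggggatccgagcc
Asns: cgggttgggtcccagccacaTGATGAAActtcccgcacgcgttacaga
Atf3: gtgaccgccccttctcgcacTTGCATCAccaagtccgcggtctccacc
The site began 14 bases after the start of Trib3, 23 before that of Asns and 110 before that of Atf3. Psat1, called with each guide, has no match in its window.

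The question of whether the Ppia guides altered these genes was put to each state. None of the 36 genes was called against sgBgal, in Control or Restored cells and with sgPpia#3.2 or sgPpia#4.1, where 0% of all genes were called, and none had an interaction of guide and restoration past the adjusted p. The same fit did not call Ppia itself. Its log2 fold changes in Control and Restored cells were -1.51 and -1.13 with sgPpia#3.2 and -0.61 and -0.44 with sgPpia#4.1. Changes of that size could thus be missed, and the lack of calls does not show that the guides left these genes unchanged. At an unadjusted p under 0.05 in limma, 0, 0, 1 and 0 of the 36 genes passed for sgPpia#3.2 in Control, sgPpia#4.1 in Control, sgPpia#3.2 in Restored and sgPpia#4.1 in Restored cells, beside 2.42, 0.210, 1.20 and 0.530% of all genes. For the interactions with sgPpia#3.2 and sgPpia#4.1 these counts were 0 and 0, beside 0.242 and 0.140% of all genes. With the block, 4, 1, 4 and 1 of the 36 genes passed, beside 12.7, 1.26, 8.64 and 3.31% of all genes, and 1 and 0 for the interactions, beside 1.36 and 0.624%. The counts of 4 genes were thus near the share of all genes. Both guides were compared with the same sgBgal libraries.

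With all libraries, the interaction values were below 0 for the 4 feedback genes and the 4 amino acid synthesis enzymes, except that Ppp1r15b with sgPpia#4.1 was above 0 after rescaling by median of ratios. Without the 4 libraries, 1 of 4 feedback genes was above 0 with sgPpia#3.2 (median -0.19) and 4 of 4 with sgPpia#4.1 (median 0.22), where the medians had been -0.83 and -0.32. The medians of all genes were 0.0051 and 0.021 without the 4 libraries and -0.0063 and -0.032 with all libraries. The sign of the group's median with sgPpia#4.1 thus depended on libraries singled out after their values were seen. Of the amino acid synthesis enzymes, 0 and 1 of 4 were above 0 without the 4 libraries. With all libraries the values for Trib3 were -1.32 with sgPpia#3.2 and -0.98 with sgPpia#4.1 (SE 1.21), and for Asns -0.96 and -0.87 (SE 0.86). Without the 4 libraries they became -0.34 and 0.14 for Trib3, -0.37 and -0.17 for Asns, and -0.062 and -0.0028 for Psat1, which had been -0.61 and -0.45. Dnajb9 with sgPpia#3.2 kept a value of -0.56, beside -0.63 with all libraries (SE 0.42).

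Within lines, the differences from sgBgal lay mostly in the 2 arms that stood apart. In Control cells of 4711-18 with sgPpia#3.2, 7 of 36 genes were higher by 2-fold or more (Xbp1, Atf5, Ddit3, Trib3, Chac1, Asns and Nupr1), as were 3.16% of all genes, and 1 was lower (Atf3), as were 4.07% of all genes. After restoration of the same arm, 0 were higher, beside 1.12% of all genes, and 8 were lower (Dnajb9, Ern1, Atf3, Trib3, Chac1, Asns, Ppp1r15a and Nupr1), beside 2.89%. In Control cells of 4711-1 with sgPpia#4.1, 2 genes were higher (Atf5 and Trib3), beside 1.15% of all genes, and 3 lower (Atf3, Ppp1r15a and Cebpb), beside 1.30%. After restoration of that arm, 0 were higher, beside 1.31%, and 7 lower (Hspa5, Atf3, Ddit3, Trib3, Chac1, Asns and Ppp1r15a), beside 2.82%. Of the other 8 libraries, 1 had any such gene, the Control library of 4711-1 with sgPpia#3.2, where 4 genes were lower (Herpud1, Ddit3, Chac1 and Cebpb), beside 1.33% of all genes. These are differences between single libraries, with no replicate of the arm.

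In both arms, Trib3 and Asns were above sgBgal of the line in Control and below it in Restored cells. Against sgBgal of the line, Trib3 in 4711-18 with sgPpia#3.2 differed by 3.33 in Control and by -1.30 in Restored cells, and in 4711-1 with sgPpia#4.1 by 1.18 and -1.72. For Asns the values were 1.82 and -1.27 in 4711-18 and 0.91 and -1.20 in 4711-1. The 13 ER chaperones and folding enzymes had a median of 0.10 and 0.087 in 4711-18 and of -0.24 and -0.19 in 4711-1, with single genes as low as -1.45 for Dnajb9 in Restored cells of 4711-18 and -1.39 for Hspa5 in those of 4711-1. The 2 arms carry different guides, and in 4711-18 the other Ppia guide, sgPpia#4.1, gave the same signs at a smaller size (0.18 and -0.40 for Trib3, 0.25 and -0.29 for Asns). In 4711-1 with sgPpia#3.2, Trib3 was at -0.99 and -0.12 and Asns at -0.44 and -0.36, below sgBgal in both states. In 4716-11, Trib3 was at 0.41 and 0.21 with sgPpia#3.2 and at -0.16 and 0.39 with sgPpia#4.1. Asns in that line was at 0.076 and 0.20 and at 0.058 and 0.095, so neither gene was below sgBgal in its Restored cells. Ppia was at 658 TPM in the Control library of 4711-18 with sgPpia#3.2 and at 1713 TPM in that of 4711-1 with sgPpia#4.1. Cdkn1a was at 369 TPM in Control cells of 4711-18 with sgPpia#3.2, the highest of the Control libraries, and at 129 TPM in those of 4711-1 with sgPpia#4.1, and the part of this in the values above was not tested.

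**Figure D4:**
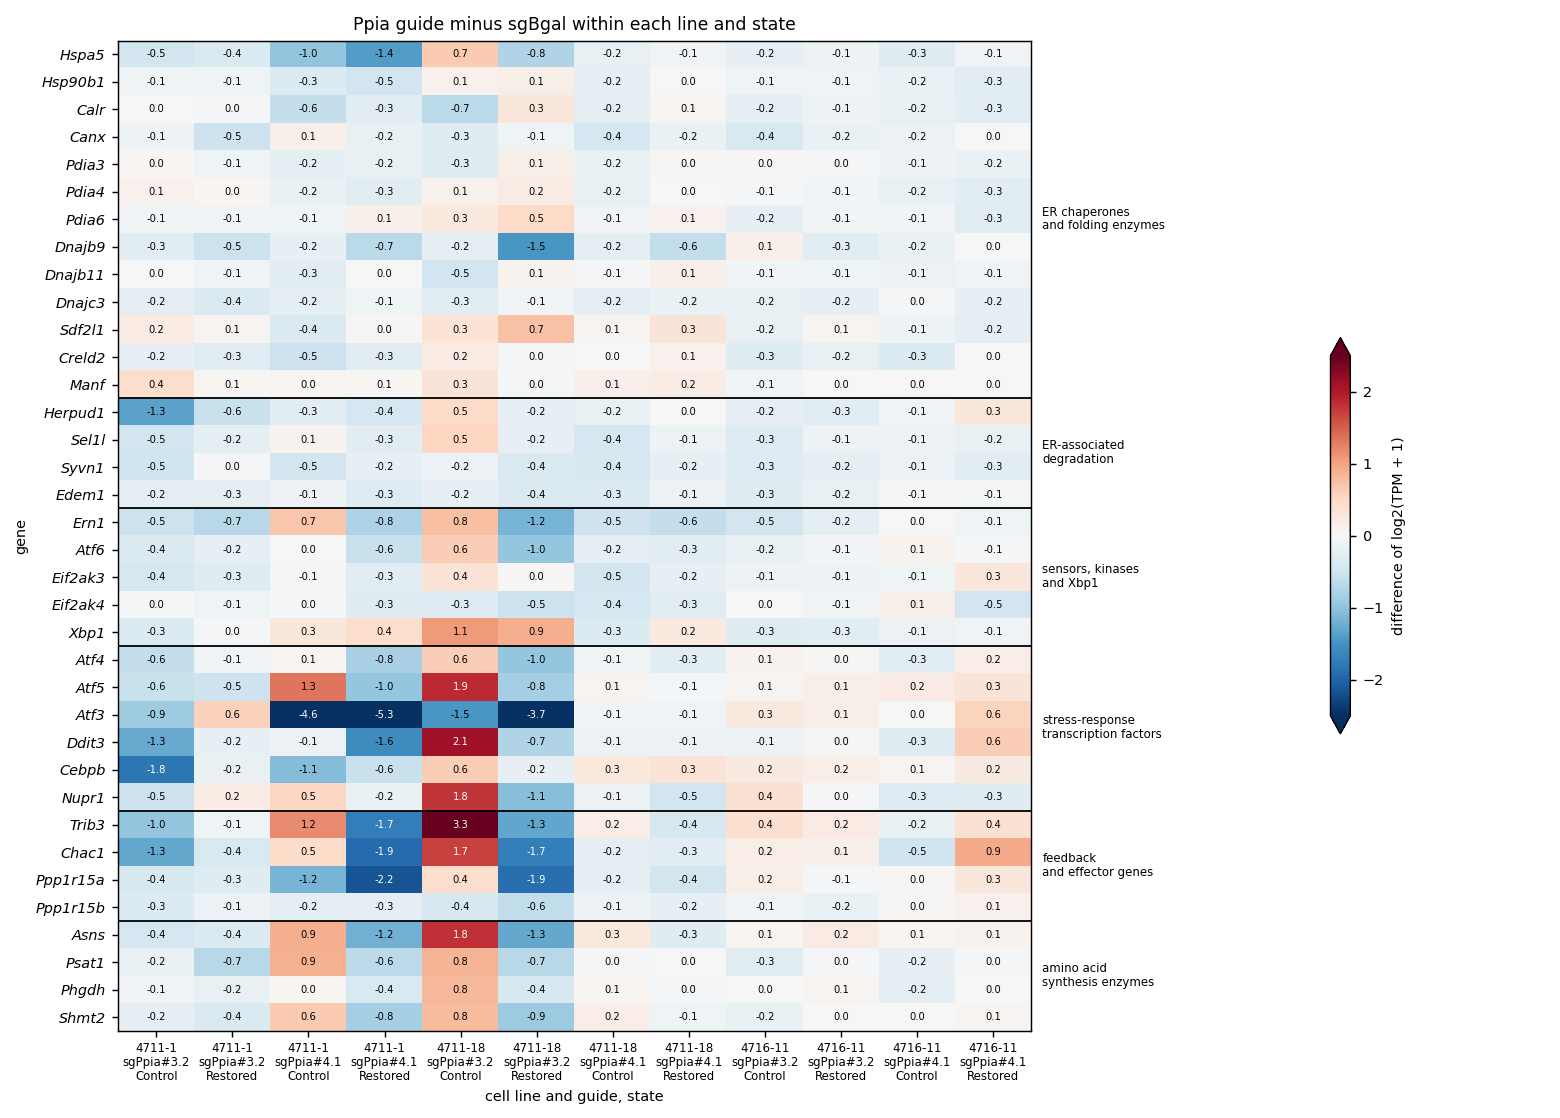
Each cell gives the difference of log2(TPM + 1) between a library with a Ppia guide and the sgBgal library of the same line and state, in rows by role (colour scale cut at 2.5 either way). The strongest colours lie in the columns of 4711-1 with sgPpia#4.1 and 4711-18 with sgPpia#3.2, where Atf3 reaches -5.34 and Trib3 3.33, and the 4 columns of 4716-11 are pale.

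Leaving the 4 libraries out left 2 lines in each state with sgPpia#3.2 and with sgPpia#4.1. With the block, this gave 4, 3 and 7 called genes of 36 with sgBgal, sgPpia#3.2 and sgPpia#4.1, beside 11.2, 9.26 and 12.4% of all genes. They were Atf5, Dnajb9, Ppp1r15a and Psat1 in sgBgal cells, Ddit3, Ppp1r15a and Psat1 in sgPpia#3.2 cells, and Atf5, Chac1, Ddit3, Dnajb9, Eif2ak3, Ppp1r15a and Psat1 in sgPpia#4.1 cells, and among them Psat1 fell and the others rose. Since the 4 libraries were singled out after their values were seen, with stress-response genes setting them apart, these calls are a description and no test. The fold changes in sgBgal cells are the same with and without the 4 libraries, since none of them carries sgBgal, and only the estimate of the spread differs. The medians of the feedback and effector genes were 0.88, -0.17 and 0.23 with all libraries and 0.88, 0.69 and 1.48 without the 4, and those of the amino acid synthesis enzymes -0.13, -0.89 and -0.84 and -0.13, -0.38 and -0.30.

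**Figure D5:**
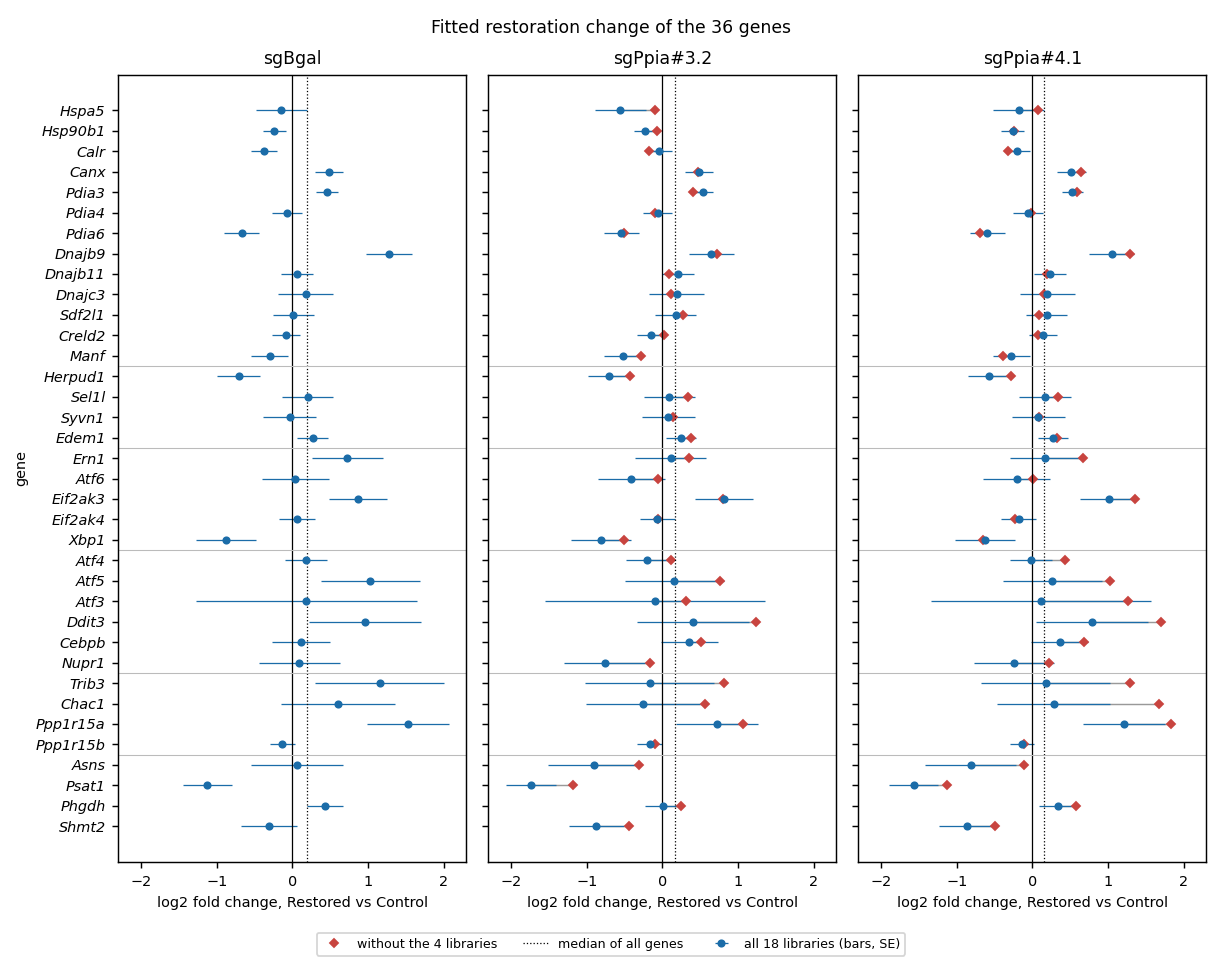
Fitted log2 fold changes of the 36 genes, Restored against Control, with blue points for all 18 libraries (bars, SE), red diamonds without the 4 libraries and a dotted line at the median of all genes. Psat1 is below -1 in all panels, and Trib3 with sgPpia#4.1 moves from 0.18 to 1.29 when the 4 libraries are left out.

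Other genes of the 2 pathways were read from 2 further lists. Of 45 other ER and unfolded protein response genes, 44 passed the filter, 0, 0 and 0 were called up and 1, 1 and 0 down with sgBgal, sgPpia#3.2 and sgPpia#4.1, beside 5.46, 4.44 and 4.30% of all genes called up and 2.17, 1.31 and 1.79% called down. Their median log2 fold change was 0.011, -0.078 and 0.0093. The gene called in sgBgal cells was Pdia5, a disulfide isomerase, at -1.04, -0.91 and -0.85 (adjusted p = 0.00106, 0.00308 and 0.00497), and that in sgPpia#3.2 cells was Ostc, a subunit of the oligosaccharyltransferase, at -0.96, -1.03 and -0.93 (adjusted p = 0.0114, 0.00900 and 0.0155). Both were lower in all 9 pairs.

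Of 44 other integrated stress response genes, 43 passed the filter, and 3, 3 and 3 were called up and 1, 1 and 1 down, beside the same shares of all genes. With the block, 6, 7 and 5 of the 43 were called, beside 11.0, 8.61 and 9.18% of all genes. The genes called up with each guide were Sesn2, Bbc3 and Tnfrsf10b, all also known as p53 targets. Sesn2, a sestrin that restrains mTORC1, had log2 fold changes of 3.25, 2.66 and 2.52 (adjusted p = 0.00183, 0.00865 and 0.0114). Bbc3, the proapoptotic PUMA gene, had 2.21, 1.95 and 1.99 (adjusted p = 0.00248, 0.00709 and 0.00575), and Tnfrsf10b, a death receptor gene, 2.20, 2.08 and 2.05 (adjusted p = 0.0106, 0.0168 and 0.0181). The gene called down was Stc2, which encodes stanniocalcin 2, a secreted glycoprotein, at -2.24, -2.05 and -2.68 (adjusted p = 4.30e-05, 1.08e-04 and 9.44e-06). The genes added by the block are named after their values were seen. They were Gdf15, a secreted stress cytokine, with each guide, at 2.13, 2.03 and 1.91 (adjusted p = 0.215, 0.277 and 0.307 without and 0.00137, 0.00224 and 0.00322 with the block). Also added were Ddit4, an mTORC1 inhibitor, in sgBgal cells (1.78, adjusted p = 0.0280) and, in sgPpia#3.2 cells, the amino acid transporter gene Slc7a5 (-1.06, adjusted p = 0.0241) and the hormone gene Fgf21 (-2.31, adjusted p = 0.0225). Both fell most in 4711-18, an arm that stood apart. With sgPpia#3.2, Slc7a5 went from 106, 204 and 102 TPM in Control to 92.3, 34.6 and 73.8 TPM in Restored libraries. Fgf21 went from 0.733, 30.5 and 4.98 TPM to 0.197, 0.331 and 0.666 TPM. The list's median was 0.22, -0.27 and -0.23 with all libraries and 0.22, 0.042 and 0.20 without the 4 libraries.

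This second list was also compared with sgBgal library by library. Against sgBgal of the line, 36 of 43 genes were higher in Control cells of 4711-18 with sgPpia#3.2 (median 0.88) and 39 of 43 in those of 4711-1 with sgPpia#4.1 (median 0.47), beside 43.6% and 56.9% of all genes (medians -0.061 and 0.046). After restoration, 1 and 6 of 43 were higher (medians -0.67 and -0.63), beside 37.0% and 39.9% of all genes (medians -0.13 and -0.077). In the other 8 libraries the median lay between -0.32 and -0.040, and 0 genes of the list were 2-fold higher in any of them, against 21 and 7 in the Control libraries of the 2 arms, where 3.16 and 1.15% of all genes were.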

How the data were processed

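RNA of 18 libraries (3 cell lines, 3 guides, 2 states) was analysed, with groups taken from the sample labels. The authors deposited TPM for 25239 genes, 1 column per library, each summing to 1000000. The submitters' processing notes name bcl2fastq 2.17 and HISAT2 and the builds mm10 and GRCm39, and the methods of the study name Kallisto or HISAT2, so the counter and annotation behind these TPM are not given in the sources used here. The table has no coordinates, and reads shared by near-identical genes could have been split.

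TPM were tested with limma 3.58.1 (R 4.3.3) on log2(TPM + 1), with 1 mean per condition, for 12828 genes (1 TPM or more in 3 or more libraries), and p-values were adjusted over all of them by the Benjamini-Hochberg method. A fold change of a low gene is understated by the added 1. An interaction was called by the adjusted p alone. The cell line, named in the labels, pairs the libraries. Deviations from condition means correlated between libraries of a line (lowest r = 0.58 over 45 pairs of conditions and lines), and fits with the line as a block are given where they change a call. The calculation was tested on simulated data.

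The 36 genes, the lists and the markers were chosen with earlier results of these data known. Values in every library are given for the defining gene of each role, the genes called after restoration and the gene of each role with the largest mean fold change. Pdia3, Atf3 and other genes singled out were chosen after their values were seen. Of the other lists, the genes called with the largest mean fold change, at most 4 a list, are named, and Ero1a and Ero1b were matched by their older symbols. Alternatives were rescaling by median of ratios, a pseudocount of 0.1, no filter or at least 1 TPM in all libraries, the block, fits on the groups compared, eBayes with trend and robust estimates, the adjusted p alone and leaving out each line. Leaving out 4 libraries, and the block with rescaling, were added after the data were seen. Promoter windows came from RefSeq, and motifs were searched in Python 3.11.15. A marker gene is not reported here.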

Additional observations from a re-analysis of the deposited data

How the results depend on the processing

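The counts of called genes among the 36 are small, so single genes move them. In sgBgal cells 2 were called, and the count was 1 with no filter on low values, 1 with only the groups compared, 4 without the 4 libraries that stood apart and with the block, and 4 with rescaling by median of ratios and the block. In sgPpia#3.2 cells 1 was called, and the count was 2 with rescaling, 0 with only the groups compared, 2 by the adjusted p alone, 3 without the 4 libraries and with the block, and 3 with rescaling and the block. In sgPpia#4.1 cells 2 were called, and the count was 1 with no filter, 0 with only the groups compared, 5 without the 4 libraries and 7 without them and with the block. With 1 cell line left out, the counts ranged from 0 to 1, 0 to 1 and 0 to 2 for sgBgal, sgPpia#3.2 and sgPpia#4.1, with fewer samples in each fit. The calls lost were those of Psat1 in sgBgal and Dnajb9 in sgPpia#4.1 cells with no filter, and with only the groups compared those of Dnajb9 in sgBgal and sgPpia#4.1 cells and of Psat1 with both Ppia guides (adjusted p = 0.0563 to 0.0870 for these 6). Comparisons of guides and interactions gave 0 under every alternative run. The replicate block for the cell line gave counts of 3, 1 and 3 and, besides the calls of Ppp1r15a and Eif2ak3 among the 36 genes, of the 4 other stress genes and of Ppia given above, changed no call of a gene named in the text.

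Of the fold changes of the 13 genes with values in every library and of Chac1, 475 values under an alternative kept their direction and side of the thresholds, 18 lost a call, 16 gained one and 37 changed sign, the last all for values that were not called. Under rescaling, with and without the block, Atf4, Asns and Atf3 in sgBgal cells were at -0.042, -0.16 and -0.035, and Atf3 with sgPpia#4.1 at -0.063. Without the 4 libraries, with and without the block, Hspa5 with sgPpia#4.1 was at 0.074, Atf4 at 0.11 with sgPpia#3.2 and 0.43 with sgPpia#4.1, and Trib3, Chac1 and Atf3 with sgPpia#3.2 at 0.81, 0.56 and 0.31. With 1 line left out at a time, the fold changes of these genes that changed sign ranged from -0.33 to 0.074 for Hspa5 with sgPpia#4.1, from -0.12 to 0.36, -0.53 to 0.11 and -0.32 to 0.43 for Atf4 with the 3 guides, from -0.12 to 1.24 for Ddit3 with sgPpia#3.2, from -1.11 to 0.81 and -0.70 to 1.29 for Trib3 and from -0.77 to 0.56 and -0.50 to 1.67 for Chac1 with the 2 Ppia guides, from -0.37 to 0.99, -0.43 to 0.31 and -0.47 to 1.27 for Atf3 with the 3 guides, and from -0.41 to 0.44 for Asns in sgBgal cells. Where libraries were not left out, the cause was not tested. TPM hold no read totals, so counting error could not be given. The 3 lines are the replicates, so p-values without the block rest on the spread between lines within a condition, pooled over the conditions in the fit. With the block, they rest on the spread that is left after the mean differences between lines are taken out.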
